A study of Rattus norvegicus with 12 samples.

Results

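Sox2, Sox9, Hesx1, Lhx3, Lhx4, Pitx1 and Six6 encode transcription factors of the early pituitary and of its progenitor cells. They are 7 of the 26311 genes named on the array and were taken as every non-control probe that the scanner files name for them, 9 probes in all. Of the 7 genes, 5 were measured above background and entered the tests, with 7 probes, and Sox9 and Hesx1 were too dim. The samples were pituitaries of fetal Wistar rats at gestational day 18, placed in RNAlater, with 3 arrays in each of 4 groups: TCDD males, control males, TCDD females and control females. TCDD is 2,3,7,8-tetrachlorodibenzo-p-dioxin, a ligand of the aryl hydrocarbon receptor, and the series title names the exposure as maternal. The labels give no dose, no day of dosing, no description of the control treatment, and no account of pooling or litters. A p-value here thus reflects only how these arrays vary, and would be too small if fetuses of a group shared a litter.

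The anterior pituitary grows from Rathke's pouch, a fold of oral ectoderm that meets the floor of the brain. HESX1 is a paired-like homeodomain repressor of the early pouch, and in mouse its gene is switched off as the hormone cells appear. LHX3 and LHX4 are LIM homeodomain proteins that the pouch needs in order to grow and to form endocrine cells. PITX1 is a homeodomain activator found across the pouch and in later hormone cells, where it acts on hormone gene promoters. SIX6 is a homeodomain protein of the pituitary, hypothalamus and retina that works with DACH co-repressors. SOX2 and SOX9 are HMG-box proteins that mark the undifferentiated cells lining the pituitary cleft.

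Each member was read by 60-base probes placed on the rn4 build in the file headers. The sequences of 4 of the 9 probes are shown as examples of the stretch of transcript that gave a value, among them both members that were too dim. Capitals mark an ATG at the opening, or a stop triplet at the end, of an otherwise open frame, and the Sox2 stretch has neither.
Sox2, inner probe, chr2:120969725-120969784, plus strand: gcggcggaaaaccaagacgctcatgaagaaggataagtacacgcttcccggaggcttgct
Sox9, chr10:102393822-102393881, plus strand: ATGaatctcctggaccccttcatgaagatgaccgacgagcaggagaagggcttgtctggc
Hesx1, chr16:2256942-2257001, plus strand: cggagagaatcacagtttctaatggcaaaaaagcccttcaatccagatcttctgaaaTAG
Lhx3, chr3:4382053-4382112, minus strand: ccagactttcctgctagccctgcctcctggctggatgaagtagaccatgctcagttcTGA
The Pitx1 probe, not printed, also ends on a stop triplet of an otherwise open frame. The brighter Sox2 probe lies at chr2:120970327-120970386 on the plus strand, and its start is 602 bases downstream of the inner probe's. Lhx4 was read at chr13:70669793-70669852 on the minus strand and Pitx1 at chr17:14839404-14839463 on the plus strand. Six6 had a brighter probe at chr6:95363467-95363526 and another whose start is 2361 bases upstream, at chr6:95361106-95361165, both on the plus strand. No exon map of rn4 was used here, so no probe was assigned to a coding or untranslated part, and the marked triplets describe these letters only.

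A level below is the log2 of the processed intensity minus the 75th percentile of its array, and levels of different members are not set against each other. For members with 2 probes, the distance between them on the arrays is given. On each array between 75.1% and 78.4% of 42877 non-control spots lay well above background, none was saturated, and the correlation over genes between arrays lay between 0.94 and 0.99. The exposure labels were borne out by Ahrr, the repressor of the receptor that TCDD binds, at 0.24 ± 0.34 in TCDD males against -5.73 ± 0.51 in control males (SD, n = 3 each). In females Ahrr averaged 0.23 ± 0.45 with TCDD against -5.63 ± 0.59 in controls (SD, n = 3 each). Cyp1a1, a monooxygenase gene induced through that receptor, was detected on no control array, and over both sexes TCDD arrays were at least 25.0-fold higher. All 12 listed markers of the anterior pituitary were detected. Arrays also carried RNA of another tissue to unequal degrees: Avil, a marker of sensory ganglion neurons, was high (0.18 to 1.63) on 6 arrays and low (-3.68 to -3.32) on the other 6. The 6 arrays of high Avil were TCDD males 1 and 2, control male 2, TCDD females 1 and 3, and control female 2, hence 4 of the TCDD arrays and 2 of the controls. In these bulk samples, fewer cells of a type and less RNA per cell cannot be told apart.

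Sox2, the progenitor marker, was well above background on all 12 arrays. Its levels were 2.18, 1.94 and 2.32 in TCDD males, against 2.19, 2.09 and 1.89 in control males. In females they were 1.74, 2.04 and 1.94 with TCDD, against 2.83, 2.07 and 1.72 in controls. The groups overlapped in both sexes, and the control females held both the highest and the lowest array of the 12. Over both sexes Sox2 had a log2 difference of -0.10 between TCDD and control (SE 0.17, 95% interval -0.47 to 0.27, limma adjusted p = 0.812). The inner probe followed the brighter one from array to array: the difference between them lay between 2.52 and 2.83 on all 12 arrays, with an SD of 0.10. Read from the inner probe, the log2 difference over both sexes was -0.0030 (SE 0.16). The direction of the Sox2 value was not stable, since without control female 1 it was 0.05.

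Sox9 was at the edge of detection. Its processed intensity lay between 2.10 and 11.7 on the scanner's scale, and it was well above background only on control female 3. Its levels were -7.37, -8.65 and -8.20 in TCDD males, against -7.89, -8.64 and -8.55 in control males. They were -8.87, -6.78 and -9.22 in TCDD females, against -6.96, -8.74 and -6.31 in control females. The lowest signal called well above background lay between -6.87 and -6.31 on these arrays, so 11 of the 12 Sox9 values are bounds and carry no order. All of these values come from the single Sox9 probe, whose sequence opens with ATG. Whether another part of the transcript would read brighter was not tested, so the dim signal describes this probe.

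Hesx1 was not well above background on any of the 12 arrays. Its processed intensity lay between 3.24 and 11.6. Its levels were -7.27, -7.60 and -6.96 in TCDD males, against -8.18, -6.34 and -7.49 in control males. In TCDD females they were -7.27, -7.34 and -8.29, against -6.66, -7.10 and -6.96 in control females. As bounds these values give no direction for Hesx1, and what they show is that its signal stayed under the array's detection limit in every group.

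**Figure D1:**
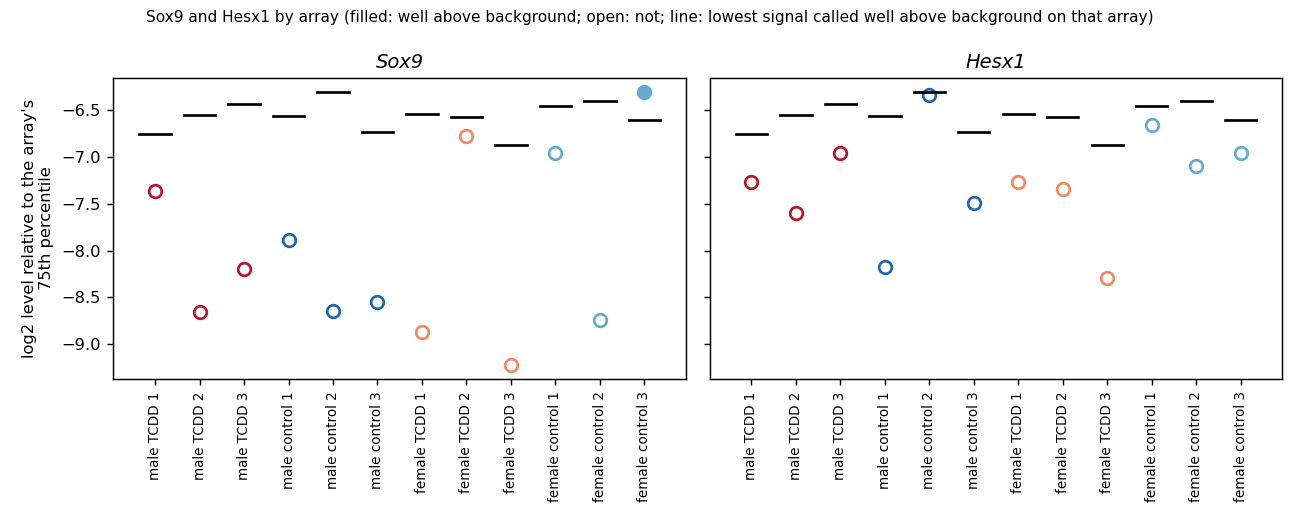
Sox9 and Hesx1 on each of the 12 arrays, as log2 level (75th percentile of the array at 0), with a line at the lowest signal called well above background on that array. Only the Sox9 point of control female 3 (-6.31) is filled, that is, well above background.

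Six6, the partner of DACH co-repressors, was detected on all 12 arrays by both of its probes. The brighter probe read -4.15, -3.24 and -2.69 in TCDD males, against -3.22, -3.33 and -3.22 in control males. In females it read -3.40, -3.12 and -3.41 with TCDD, against -2.44, -3.22 and -3.20 in controls. The TCDD males held an array below and an array above all 3 control males, and their SD was 0.74 against 0.06 in control males. In females the SD was lower with TCDD, at 0.17 against 0.44 in controls. The upstream probe kept a distance of 1.79 to 2.13 from the brighter one on the 12 arrays (SD 0.14). Over both sexes the log2 difference between TCDD and control was -0.23 (SE 0.23, 95% interval -0.75 to 0.28, limma adjusted p = 0.707), and -0.28 from the upstream probe. In males it was -0.11. Without TCDD male 1 it was -0.035 over both sexes and 0.29 in males, and without TCDD male 3 it was -0.40 and -0.44.

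Lhx3 had the smallest spread of the measured members, with a within-group SD of 0.24 that was close to the median of 0.23 over all genes. Its levels were -1.0, -0.71 and -0.31 in TCDD males, against -0.16, -0.39 and -0.35 in control males. They were -0.83, -0.67 and -0.71 in TCDD females, against -0.09, -0.65 and -0.35 in control females. TCDD male 3 lay among the control males, and the TCDD females lay below all control females with the nearest pair of arrays at -0.67 and -0.65. The log2 difference over both sexes was -0.37 (SE 0.13, 95% interval -0.66 to -0.09), or 0.772 of the control level. Its unadjusted p of 0.0147 became an adjusted p of 0.670 in limma over all genes.

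Lhx4, the close relative of Lhx3, had the largest difference over both sexes among the 5 measured members on this scale, though not with normexp background correction. Its levels were -4.82, -4.58 and -3.49 in TCDD males, against -3.66, -3.59 and -3.47 in control males. In TCDD females they were -4.17, -4.25 and -3.82, against -3.27, -3.86 and -3.67 in control females. TCDD male 3 again lay among the controls, and TCDD female 3 lay just above control female 2. Over both sexes the log2 difference was -0.60 (SE 0.22, 95% interval -1.08 to -0.12), or 0.658 of the control level, with an unadjusted p of 0.0186 and a limma adjusted p of 0.670. With normexp it was -0.35, against -0.39 for Pitx1 and -0.36 for Lhx3 in the same fit.

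Pitx1, the activator of hormone gene promoters, was well above background on all 12 arrays. Its levels were 0.85, 1.44 and 2.04 in TCDD males, against 1.83, 1.70 and 1.98 in control males. They were 1.40, 1.48 and 1.64 in TCDD females, against 2.31, 1.63 and 1.82 in control females. The highest TCDD male exceeded all control males, while the other TCDD males were under them, and in females the groups met at 1.64 and 1.63. The log2 difference over both sexes was -0.40 (SE 0.19, 95% interval -0.82 to 0.01, limma adjusted p = 0.670). It was -0.25 without TCDD male 1 and -0.55 without TCDD male 3, with adjusted p-values of 0.925 and 0.173.

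**Figure D2:**
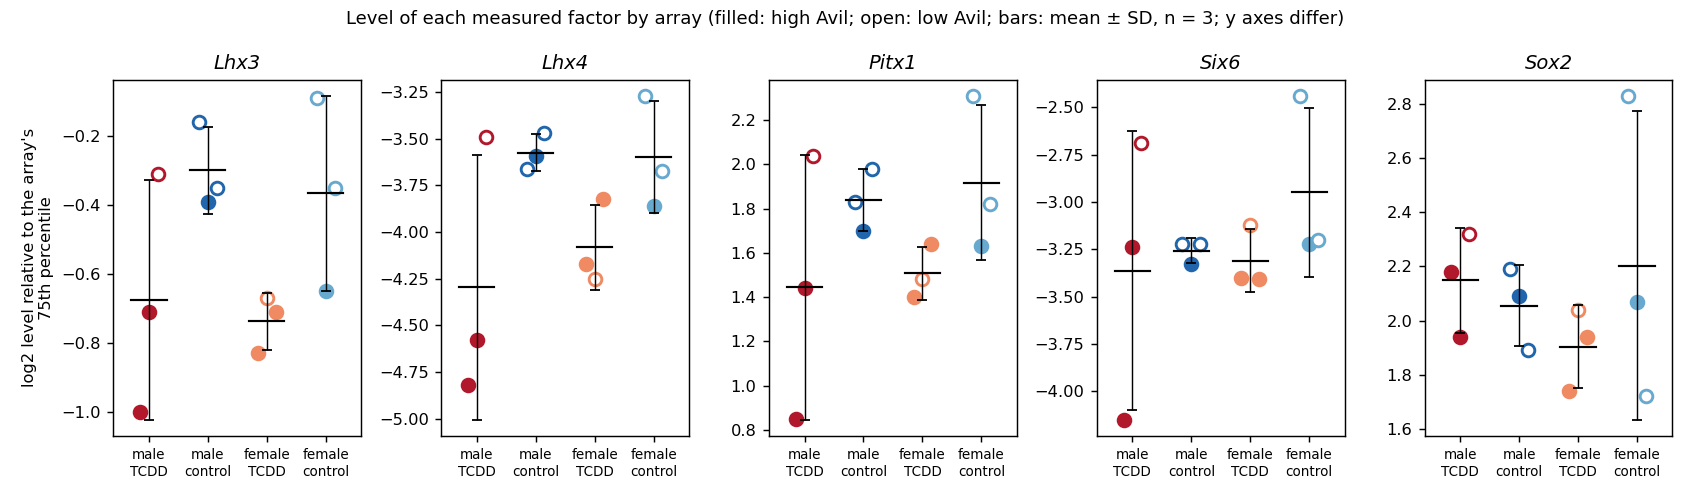
Levels of the 5 measured factors on each array (log2, 75th percentile of the array at 0), by group, with the mean and SD of 3 arrays. Filled points are arrays of high Avil. TCDD male 1 is the lowest of all 12 arrays for Lhx3, Lhx4, Pitx1 and Six6.

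No measured member passed the test in any comparison. Over both sexes limma called 0 of the 5, and 0.0206% of all 19378 genes, while at an unadjusted p below 0.05 it held 2 of the 5 (Lhx3 and Lhx4) and 6.46% of all genes. All 5 differences were below 0, with a median of -0.37, where 55.8% of all genes lay below 0 and their median was -0.02. The members are read on the same arrays, so their common sign is not 5 separate observations. With limma's array weights as the single change, 3 of the 5 were called (Lhx3, Lhx4 and Pitx1, adjusted p of 0.0295, 0.0249 and 0.0428). That setting gave TCDD male 2 a weight of 316, where no other array had more than 1.77, and called 2208 genes in all.

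Within males limma called 0 of the 5 members, against 0.0103% of all genes, with adjusted p-values between 0.506 and 0.884. At an unadjusted p below 0.05 there was 1 member, Lhx4, beside 9.35% of all genes. Lhx4 averaged -4.30 ± 0.71 in TCDD males and -3.58 ± 0.10 in control males, a log2 difference of -0.72 (SE 0.31). Lhx3 averaged -0.67 ± 0.35 and -0.30 ± 0.13 in the same groups, a difference of -0.38 (SE 0.18), and Pitx1 averaged 1.44 ± 0.60 and 1.84 ± 0.14, a difference of -0.39 (SE 0.26). All SDs are over 3 arrays. In males no member had TCDD and control arrays without overlap, where TCDD lay below in 6.02% of all genes and above in 8.39%. The SD was larger in TCDD than in control males for each of the 5 genes, and smaller in TCDD than in control females. Each of these SDs comes from 3 arrays, the same for all 5 genes. The share of all genes with this pattern was not computed, and the difference in spread was not tested. TCDD males 1 and 3 pulled the male values of Lhx3, Lhx4, Pitx1 and Six6 opposite ways. For Sox2 both lay above the TCDD male mean of 2.15. Without TCDD male 1 the log2 difference was -0.21 for Lhx3, -0.46 for Lhx4 and -0.10 for Pitx1. Without TCDD male 3 it was -0.56 for Lhx3, -1.12 for Lhx4 and -0.69 for Pitx1, with adjusted p-values of 0.119, 0.119 and 0.120. Array weights called the same 3 genes in males as over both sexes, in a fit that called 8561 genes.

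Among females limma called 0 of the 5 members, against 0.0103% of all genes, with adjusted p-values of 1.00 for all 5. None had an unadjusted p below 0.05, which 2.68% of all genes had. Lhx3 averaged -0.74 ± 0.08 in TCDD females and -0.37 ± 0.28 in control females, a log2 difference of -0.37 (SE 0.18). It was the only member of the 5 whose TCDD females lay below every control female, a pattern found in 5.5% of all genes. Lhx4 averaged -4.08 ± 0.23 and -3.60 ± 0.30 in the same groups, a difference of -0.49 (SE 0.31), and Pitx1 averaged 1.51 ± 0.12 and 1.92 ± 0.35, a difference of -0.41 (SE 0.26). Control female 1, the highest of the 12 arrays for all 5 genes, weighed on these values: without it the difference was -0.23 for Lhx3, -0.32 for Lhx4, -0.21 for Pitx1, -0.10 for Six6 and 0.01 for Sox2.

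**Figure D3:**
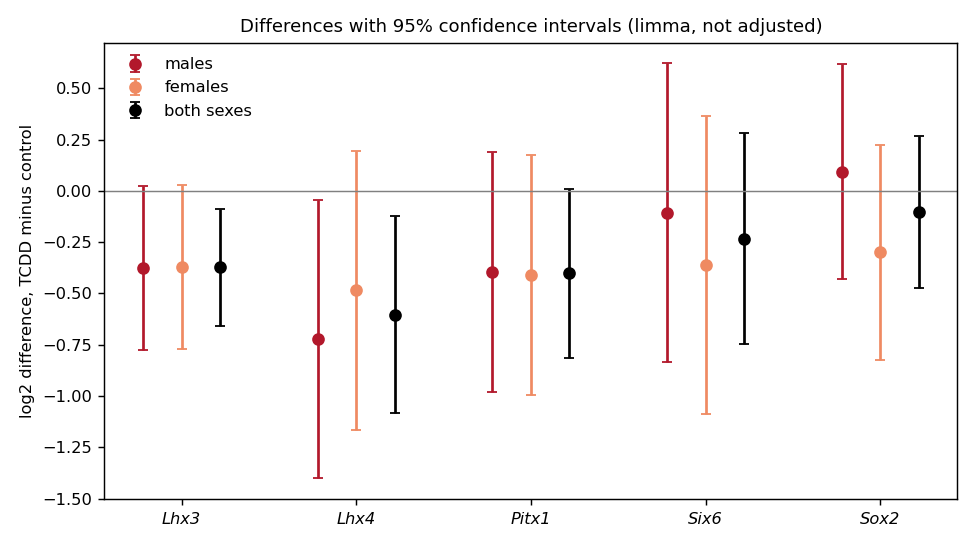
Log2 differences between TCDD and control with 95% confidence intervals from limma, not adjusted, for males, females and both sexes. Over both sexes the intervals of Lhx3 (-0.66 to -0.09) and Lhx4 (-1.08 to -0.12) lie below 0, and the others include 0.

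The effect of TCDD was compared between the sexes directly. Limma called 0 of the 5 members for the male minus female difference of the effect, where it called 0% of all genes, and 0 of the 5 had an unadjusted p below 0.05, beside 4.47% of all genes. The differences ran from -0.24 for Lhx4 to 0.39 for Sox2, with adjusted p-values between 0.883 and 0.997. Their intervals were wide, for Lhx4 from -1.20 to 0.72 and for Lhx3 from -0.57 to 0.56. For Sox2 the inner probe gave 0.67 (SE 0.33), with an effect of 0.33 in males and -0.34 in females. Its unadjusted limma p was 0.0658, and its adjusted p over all kept probes was 0.882. Between male and female controls limma called 0 of the 5 members, against 0.0103% of all genes, and 0 of the 5 had an unadjusted p below 0.05, beside 5.51% of all genes. The sexes overlapped in all 5, where all male controls lay below all female controls in 8.63% of all genes and above in 1.94%. Those male minus female differences ran from -0.31 for Six6 to 0.07 for Lhx3.

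Medians of all 5 measured members were lower on the arrays that carried the mark of ganglion tissue, though the ranges overlapped for each member. Of those arrays 4 were TCDD arrays and 2 were controls, so these medians mix the mark with exposure. The share of all genes with a lower median on those arrays was not computed. On the 6 arrays of high Avil the median level of Lhx3 was -0.71, against -0.33 on the other 6, and that of Lhx4 was -4.01 against -3.58. Medians of Pitx1 were 1.54 on arrays of high Avil and 1.91 on the others, of Six6 -3.37 and -3.16, and of Sox2 2.00 and 2.11. All 17 measured markers of ganglion neurons together had a mean level between -0.19 and 1.18 on the first 6 arrays and between -4.21 and -3.56 on the other 6. Their summed signal, as log2, lay between 1.15 and 6.75 in TCDD males, 0.84 and 5.36 in control males, 1.08 and 5.76 in TCDD females, and 0.77 and 5.87 in control females. Of the 17, 16 had a log2 difference above 0 between TCDD and control and 0 were called. The 10 measured markers of peripheral glia were all above 0, with a median of 0.84 and 0 called. An unadjusted p below 0.05 was held by 0 of the 17 and 2 of the 10. Mrgprd of the neuron list and Cdh19 of the glia list did not pass the filter on dim probes.

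Without the 6 arrays of high Avil, the differences over both sexes were -0.25 for Lhx3, -0.35 for Lhx4, -0.22 for Pitx1, 0.11 for Six6 and 0.03 for Sox2. In males, where this left 1 TCDD array, they were -0.06 for Lhx3, 0.07 for Lhx4, 0.14 for Pitx1, 0.53 for Six6 and 0.29 for Sox2. In females, also with 1 TCDD array, they were -0.45 for Lhx3, -0.78 for Lhx4, -0.58 for Pitx1, -0.30 for Six6 and -0.23 for Sox2. The lone TCDD array of each sex was assumed to vary like the other groups, and that fit called no gene at all. With the mean of the ganglion markers as a covariate on all 12 arrays, the values over both sexes were -0.25 for Lhx3, -0.46 for Lhx4, -0.25 for Pitx1, -0.05 for Six6 and -0.05 for Sox2.

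The 3 slides, each scanned on its own, held unequal parts of the groups. Control males and TCDD male 1 shared slide 1, TCDD males 2 and 3 shared slide 2 with control females 1 and 2, and control female 3 shared slide 3 with the TCDD females. With slide as a block the values over both sexes were -0.54 for Lhx3, -0.83 for Lhx4, -0.65 for Pitx1, -0.51 for Six6 and 0.16 for Sox2, with adjusted p-values between 0.183 and 0.605. Within slide 1, TCDD male 1 against the 3 control males gave -0.70 for Lhx3, -1.25 for Lhx4, -0.99 for Pitx1, -0.90 for Six6 and 0.13 for Sox2. Within slide 3, the 3 TCDD females against control female 3 gave -0.38 for Lhx3, -0.42 for Lhx4, -0.31 for Pitx1, -0.12 for Six6 and 0.19 for Sox2. Since the block leaves TCDD male 1 as the only TCDD male set against its own sex, these male values rest on that array.

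**Figure D4:**
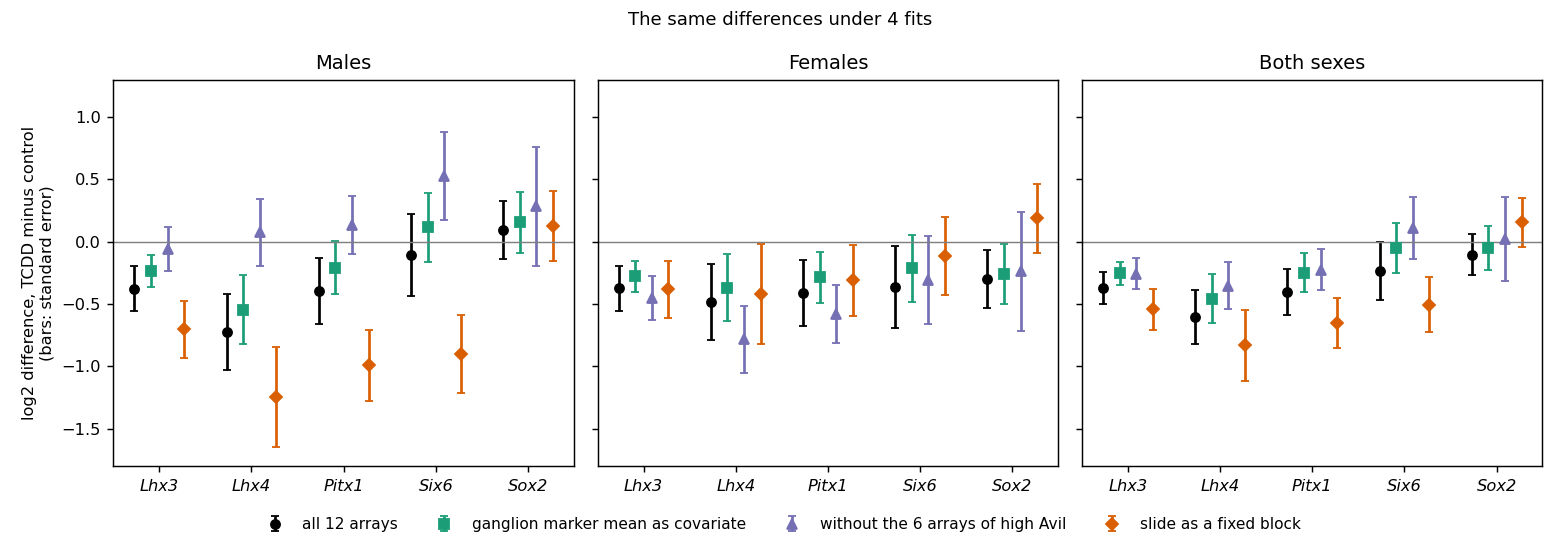
Log2 differences between TCDD and control with standard errors under 4 fits, for males, females and both sexes. Lhx3, Lhx4 and Pitx1 stay below 0 in females and over both sexes under all 4, whereas in males Lhx4 and Pitx1 are above 0 without the 6 arrays of high Avil.

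The arrays ranked alike for several members. TCDD male 1 was the lowest of the 12 for Lhx3, Lhx4, Pitx1 and Six6, but ranked 9 from the lowest for Sox2. TCDD male 3 ranked 10 or 11 from the lowest for all 5. The genes whose levels ran most like each member were sought among 12097 genes detected on all arrays, by Pearson's r over the 12 arrays. The ganglion signal was high on 6 of these arrays and low on the other 6, and its part in r was not tested. The genes nearest to Pitx1 included Tbx19 (r = 0.98), which encodes a T-box factor of corticotropes and melanotropes. They also included Ror2 (r = 0.98), which encodes a receptor for Wnt proteins. For Tbx19 the value was 0.98 within the 6 arrays of high Avil and 0.97 within the other 6. All of these genes were picked by r over the same 12 arrays, so values within parts of them are no separate check. Closest to Sox2 were Ccdc40 (r = 0.95), needed for motile cilia, Tekt1 (r = 0.92), a tektin of ciliary microtubules, and Rcbtb1 (r = 0.92). Within the arrays of high Avil Ccdc40 had an r of 0.65, and within the others 0.99. The nearest to Lhx3 were Tmem219 (0.98), Morn1 (0.97) and C8h15orf61 (0.97), to Lhx4 Retreg3 (0.96), Atp7b (0.96) and Defb24 (0.95), and to Six6 Tceal9 (0.97), Tpbg (0.96) and Zfp212 (0.96).

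Genes that act beside the members were read from lists, over both sexes and with the same limma fit. Of 36 other progenitor and early pituitary factors 34 were measured, 24 of them below 0 and 10 above, with a median log2 difference of -0.14 and 0 called. Among them Sox4 stood at 0.20 (SE 0.07) and Cdh1 at -0.40 (SE 0.16), each with an adjusted p of 0.670. Sox4 encodes an SRY-related factor of immature cells and Cdh1 encodes E-cadherin.

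Factors of the differentiating endocrine lineages were measured for 15 of 20, with 11 below 0, 4 above, a median of -0.11 and 0 called. Rxrg, a retinoid X receptor gene, stood at 0.49 (SE 0.08, adjusted p = 0.142), Pou1f1 at -0.46 (SE 0.21) and Nr0b1 at -0.47 (SE 0.22), the last 2 at an adjusted p of 0.670. Of 24 partners and co-regulators of the LHX, SIX6 and HESX1 proteins 18 were measured, 9 above and 9 below 0, with a median of -0.0024 and 0 called. Dach2, a co-repressor that pairs with SIX6 and its relatives, stood at -0.68 (SE 0.15, adjusted p = 0.442), Ldb2, a LIM-domain binding protein, at 0.50 (SE 0.22) and Eya3, a co-activator of that family, at -0.33 (SE 0.19), the last 2 at an adjusted p of 0.670.

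Hormone and receptor genes described elsewhere as targets of LHX3, PITX1 or SIX6 were all measured, 12 of 12. That list also holds Pou1f1 and Cdkn1b, which encode neither a hormone nor a receptor, and Pou1f1 is also among the lineage factors above. Below 0 lay 10 and above 0 lay 2, with a median of -0.54 and 0 called. An unadjusted p below 0.05, which 6.46% of all genes had, was held by 7 of these 12, 3 of the 34 progenitor and early factors, 1 of the 15 lineage factors and 2 of the 18 partners. Gh1, the growth hormone gene, stood at -2.39 (SE 0.59, adjusted p = 0.585). Tshb and Fshb, the beta subunits of thyrotropin and follitropin, stood at -0.76 (SE 0.20, adjusted p = 0.662) and -1.26 (SE 0.42, adjusted p = 0.670). Several of these genes were known from earlier results of these data to be low with TCDD, so their sign is no independent evidence about the factors.

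**Figure D5:**
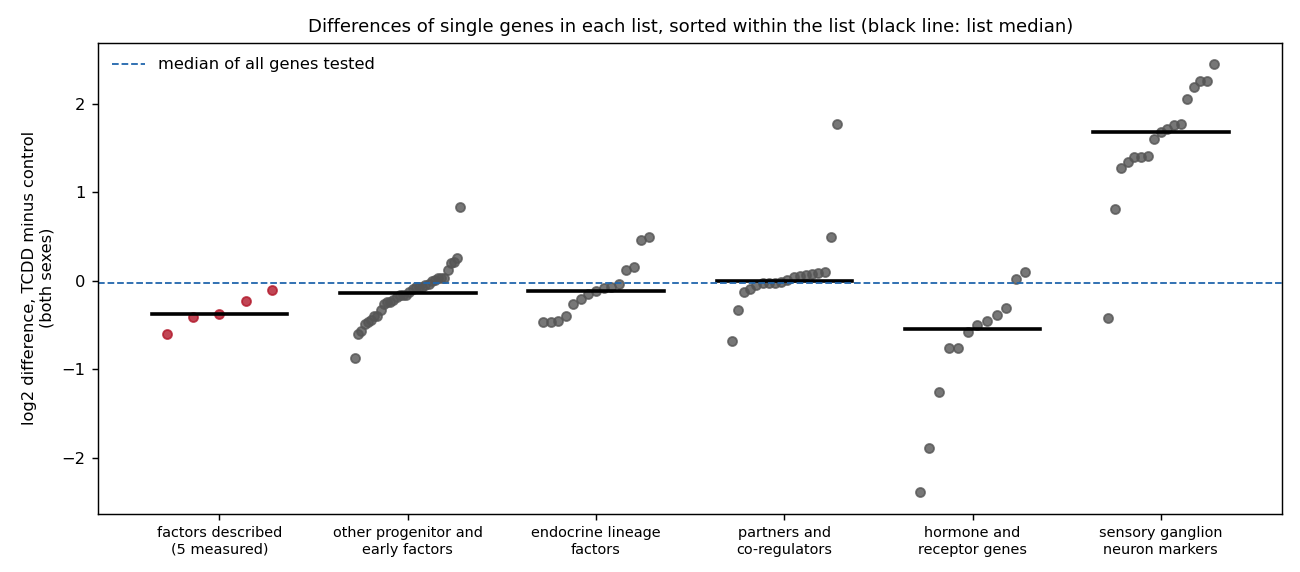
Log2 differences between TCDD and control over both sexes for each gene of 6 lists, sorted within the list, with the list's median as a black bar. The median is -0.37 for the 5 measured factors and -0.54 for the list of hormone and receptor genes, which also holds Pou1f1 and Cdkn1b. It is 1.68 for the ganglion neuron markers, against -0.02 for all genes tested (dashed line).

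The other measured SOX and LIM homeobox genes had medians above 0. Of 17 other SOX genes 10 were measured, 7 above 0 and 3 below, with a median of 0.08 and 0 called. Sox14 had a log2 difference of 1.04 (SE 0.38) and Sox8 had 0.34 (SE 0.19), each at an adjusted p of 0.670. Of 10 other LIM homeobox genes 8 were measured, 6 above 0 and 2 below, with a median of 0.19 and 0 called. An unadjusted p below 0.05 was held by 2 of the 10 SOX genes and 0 of the 8 LIM genes. Isl2 at 1.77 (SE 1.51), Lmx1b at 0.17 (SE 0.16) and Isl1 at 0.83 (SE 0.77) had the smallest p-values, and Isl2 is also in the list of ganglion neuron markers. The summed signal of the LIM genes lay between 1.27 and 2.53 on arrays of high Avil, against 0.46 to 0.84 on the others.

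Other tissues near the gland were read the same way. Cartilage markers, measured for 9 of 11, were above 0 in 8 and had a median of 0.25, and skeletal muscle markers, 9 of 10, were all below 0 with a median of -0.49. Markers of hypothalamus, posterior lobe and forebrain, 8 of 11, were above 0 in 4 and below in 4, with a median of 0.29. Stratified epithelium, 5 of 6, had a median of -0.25. An unadjusted p below 0.05 was held by 0 of the 9 cartilage, 3 of the 9 muscle, 2 of the 8 brain and posterior lobe and 2 of the 5 epithelium markers. None of these genes was called, and their part in the values of the members was not tested. Six6 and Sox2 are also expressed in hypothalamus, and these arrays do not separate the tissues.

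The window of 250 bases before the start of transcription was searched for GCGTG, the core letters bound by the aryl hydrocarbon receptor dimer, on both strands. RefSeq's table on the GRCr8 build held such a window for 5 of the 7 members, Hesx1, Lhx3, Lhx4, Six6 and Sox2. Sox9 and Pitx1 had no entry. The letters occurred in 1 of the 5, Lhx4, and in 25.9% of all 33469 promoters of that table. For comparison, the window of Ahrr held 3 and that of Nqo1 held 1. The Lhx4 window is shown because it alone among the members held the motif, with the letters of the motif's other strand in capitals.
Lhx4, GRCr8 chr13:70467506-70467755, minus strand: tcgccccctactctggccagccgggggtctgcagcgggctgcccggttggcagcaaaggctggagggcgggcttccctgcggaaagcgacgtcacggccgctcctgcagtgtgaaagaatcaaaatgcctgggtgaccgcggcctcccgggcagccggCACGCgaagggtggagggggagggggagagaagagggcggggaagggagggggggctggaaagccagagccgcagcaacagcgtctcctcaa
A match of 5 letters is a description of the window and not a binding site, and a window without it says only that the letters are not there.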

How the data were processed

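Total RNA of 12 fetal rat pituitary samples was amplified, labelled with Cy3 and hybridised to 1-colour whole-genome arrays, per the labels' protocols. The authors deposited scanner files with spot intensity values on a linear scale, written by Agilent Feature Extraction 10.7.1.1 per the file headers (9.5.1.1 per the submitters' processing notes), with probe positions on rn4. A value table that they deposited holds intensity values too. All its columns shared a median of 83.5 and ranked probes as the scanner files did, so it was taken as linear and quantile-normalized, a step inferred from the values.

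The processed intensity, already background-corrected per the file headers, was used without control spots and outlier spots. Its log2 was centred on each array's 75th percentile (9.86 to 10.29), and spots of a probe were averaged. A probe was kept if well above background on at least 3 arrays with at least 10 values, which held for 22426 of 30367 probes. The brightest kept probe stood for a gene, for 19378 genes. Probe names came from the RefSeq gene table for 18006 probes by accession and for 2654 by symbol, and from the files for 9707. All comparisons used limma 3.58.1 (R 4.3.3) on the 12 arrays together, with 4 group means and a variance trend on intensity. Adjusted p-values are Benjamini-Hochberg over all genes, and a call needs one under 0.05. Intervals are at 95%. For an at-least fold, each dim array was put at its own value or at its lowest signal well above background, whichever was higher, before means were compared. The number of arrays limits the precision. The scripts were tested on simulated data.

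Named are all members, genes of a list that passed or else the 3 with the smallest p, the 3 genes most like each member, Ahrr, Cyp1a1 and Avil. Some genes that this rule takes are not reported here. The members and lists were chosen with earlier results of these data known. Same-numbered arrays of a sex did not deviate together throughout. Correlations were 0.34 and 0.44 for male numbers 2 and 3, but -0.22 for male number 1 and from -0.70 to -0.37 in females. Numbers were thus not taken as pairs.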

Additional observations from a re-analysis of the deposited data

How the results depend on the processing

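The 5 measured members were refitted under up to 27 other settings: normexp background correction, median centring, quantile normalization, the authors' deposited value table, looser and stricter filters, the mean over probes, no intensity trend, only the arrays compared, slide, array weights, the ganglion signal, and each array left out. The number of members called was 0 in every comparison under all of these except array weights, which called 3 over both sexes and 3 in males. Among member values, 598 kept their direction and their side of the threshold, 6 became called (all with array weights) and 51 changed sign. The causes of the changes were not tested. Part of the 598 could not change direction. Leaving out a male array leaves the TCDD effect in females as it was, and the reverse. The filters, no intensity trend, replicate number as a block and only the arrays compared also left each member's difference the same.

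Over both sexes Sox2 was 0.16 with slide as a block and within slides. By the layout of the slides both settings give the same TCDD effects, so they are not separate checks. Over both sexes Sox2 was 0.026 without the 6 arrays of high Avil, where Six6 was 0.11. In males Lhx4 was 0.075, Pitx1 0.14 and Six6 0.53 without these arrays. Six6 was 0.12 with the ganglion covariate and 0.012 with array weights, where Sox2 was -0.099. In females Sox2 was 0.19 with slide as a block and within slide 3. For the male minus female effect, Pitx1 was -0.027 with normexp, -0.036 with median centring, -0.045 with quantile normalization, -0.038 with the authors' deposited table, and -0.68 with slide as a block, where Sox2 was -0.062 and Six6 -0.78. Lhx3 was 0.011 with array weights, 0.044 with the covariate and 0.39 without the 6 arrays, where Lhx4 was 0.86. Between control sexes, slide as a block gave 0.77 for Pitx1 and 0.76 for Six6, array weights -0.026 for Lhx4, and leaving out the 6 arrays -0.030 for Lhx3 and -0.10 for Lhx4.

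With single arrays left out, Sox2 ranged from -0.22 to 0.054 over both sexes and from -0.54 to 0.013 in females, and Six6 from -0.44 to 0.29 in males. The male minus female effect ranged from -0.19 to 0.16 for Lhx3, -0.64 to 0.027 for Lhx4, -0.28 to 0.31 for Pitx1 and -0.081 to 0.65 for Six6. The control sex difference ranged from -0.39 to 0.16 for Sox2, -0.078 to 0.20 for Lhx3, -0.11 to 0.19 for Lhx4 and -0.22 to 0.12 for Pitx1. Without the filter Hesx1 and Sox9 were each at -0.33 over both sexes (adjusted p of 0.734 and 0.816), between values that are mostly bounds.

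Replicate numbers were not taken as pairs. With the replicate block 0 members were called, Lhx3 stayed at -0.37 (adjusted p = 0.708), Lhx4 at -0.60 (adjusted p = 0.708) and Pitx1 at -0.40 (adjusted p = 0.708), and 2 genes in place of 4 were called over both sexes.

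Calls among all genes moved more. Over both sexes they numbered 15 with slide as a block, 11 within slides, 11 with the covariate, 2208 with array weights, 0 without the 6 arrays, 9 without TCDD male 1, 7 without TCDD male 3 and 7 without control female 1. In males they numbered 26 with slide as a block, 276 within slide 1, 8561 with array weights, 4 with the covariate, 4 without the trend, 1 each with normexp, the stricter filter and males alone, and 0 without the 6 arrays. In females they were 1 with normexp and with the stricter filter, and 0 within slide 3 and without the 6 arrays. The male minus female effect had 6 with slide as a block and 3 with array weights. The control sexes had 10 with slide as a block, 1 with normexp, with the stricter filter and without control male 2, and 0 in controls alone and without the 6 arrays.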
